A study of Rattus norvegicus with 5 samples.

Results

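Out of 299341 transcripts listed in 5 rat ovary libraries, 25 were higher in both ovaries given cisplatin alone than in the saline control ovary and lay near the control level in both ovaries given platelet-rich plasma after cisplatin. They were chosen on TPM, an abundance scaled for transcript length and library total, on the scale log2(TPM + 1). A member had 5 TPM or more in both cisplatin libraries and lay at least 1 unit (2-fold) above control in both. With plasma it lay within 1 unit of control in both libraries, and at least 1 unit below the cisplatin library of the same schedule. The levels that chose the members are therefore a description, and no test was made on them.

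The ovaries came from female Sprague Dawley rats aged 10 to 12 weeks, and 1 ovary from each of 5 groups of 6 rats was sequenced. The control rats received 5 injections of saline. The other groups were given cisplatin into the abdominal cavity at 3 mg/kg once a week, in either 3 injections (doses), for a mild model of premature ovarian insufficiency, or 5 times, for a severe one. At each schedule a further group had platelet-rich plasma (PRP), prepared from blood of donor rats, injected into the ovary through a laparotomy 1 week after its last cisplatin dose, with antibiotics for 3 days. Tissue was taken 2 weeks after PRP, or 2 weeks after the last saline injection in the control group. When the ovaries with cisplatin alone were taken relative to their last dose is not stated separately in these sources. Laparotomy, antibiotics and PRP went together and cannot be told apart. Time from the last cisplatin or saline injection to tissue also differed between the PRP and control ovaries. The only control had 5 injections, so differences of the 3-dose groups from it also go with the number of injections. Neither can be told apart from treatment. With 1 library in each group there is no spread between animals, so every difference below is between single ovaries, and the intervals given are exact Poisson 95% intervals that cover counting error only.

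Cisplatin forms crosslinks in DNA that block replication and transcription, and it sets off the DNA damage response of the cell. In the ovary it depletes follicles, the units made of an oocyte and the granulosa cells around it, and this depletion underlies its use as a model of early ovarian failure. Platelets carry growth factors in granules and release them on activation, which is the reason PRP is tried as a treatment for such ovaries. The files number their transcripts and do not pair the numbers with gene names. Of these numbered identifiers, 0 were found in the gene table of assembly GRCr8. No role can therefore be given for any member, and neither ovarian cell type markers nor lists of p53 targets, steroid synthesis, inflammation, fibrosis or mitochondrial genes could be evaluated. Members are called by their length, and 4 of them by number.

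The libraries held between 26383246 and 31822055 estimated counts. Fragment length, read from the difference of length and effective length, was 229.9 bases in the saline library, 186 after 3 doses and 217 with PRP added, 223 after 5 doses and 194 with PRP added. The part of fragment length in the members' levels was not tested. In bulk tissue, a change in the number of cells of a type and a change in RNA per cell cannot be told apart.

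The 25 members differed widely in level. In the control library they ranged from 0 to 202 TPM with a median of 4.24 TPM, and in the 3-dose library from 5.22 to 718 TPM with a median of 13.0 TPM. After 5 doses the range was 5.74 to 619 TPM and the median 14.7 TPM. With PRP the medians were 3.19 TPM after 3 doses and 2.48 TPM after 5. Most members were low: 14 were under 20 TPM in both cisplatin libraries, and 5 reached 100 TPM in at least 1 of them. At 20 TPM or more in both were 9 of the 25. Of the 699 transcripts raised at least 2-fold in both cisplatin libraries, 301 reached that level, so low levels were not particular to the members. The rule as a whole took 0.162% of the 15393 transcripts at 5 TPM or more in both cisplatin libraries, a share given as background from which nothing is read.

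**Figure D1:**
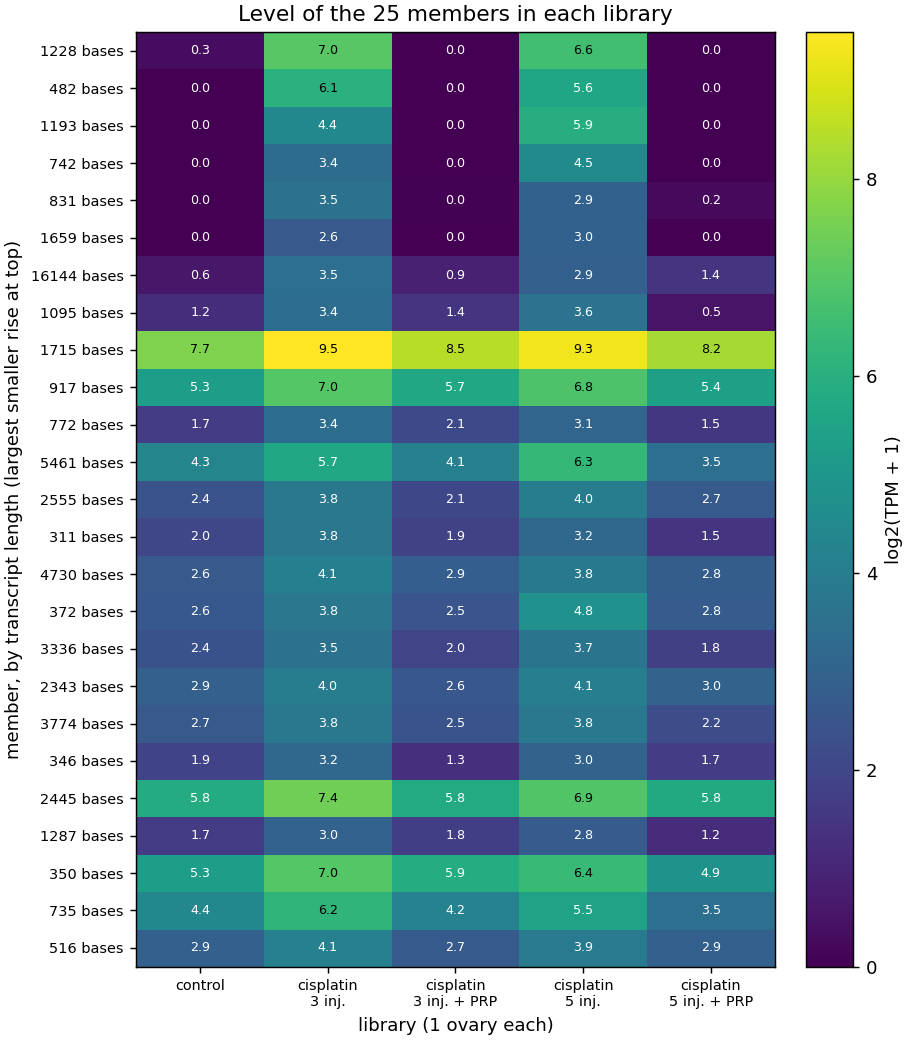
Level of each of the 25 members (rows, named by length in bases) in the 5 libraries (columns) as log2(TPM + 1), in colour and digits, ordered by the smaller of the 2 rises over control. The top 6 rows are near 0 in the control and both PRP libraries, and the other 19 have a measurable level in every library.

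The members fell into 2 kinds by their level outside the cisplatin libraries. In 6 members the level was under 1 TPM in the saline library and in both PRP libraries, and the transcript was seen almost only in the ovaries given cisplatin alone. The other 19 were present in every library and differed by degree. The boundary of 1 TPM was chosen after the values were seen.

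First among the near-0 members was transcript_354932, of 1228 bases. The saline library had 0.245 TPM of it (0.103 to 0.530), and it stood at 129.6 TPM after 3 doses (125 to 134), 0 TPM with PRP after 3 doses, 97.5 TPM after 5 doses (93.5 to 102) and 0 TPM with PRP after 5 doses. Both cisplatin libraries were far above the other 3, and the counting intervals did not overlap. The level was 529-fold above control after 3 doses and 398-fold after 5. With PRP it was at least 1011-fold lower after 3 doses and at least 1158-fold lower after 5, measured against a floor of 3 counts in the PRP library. Second was transcript_25613, of 482 bases. It had an estimated count that rounded to 0 in the control and both PRP libraries, 66.6 TPM after 3 doses (61.0 to 72.7) and 46.8 TPM after 5 doses (41.4 to 52.6). Against floors of 3 counts the 3-dose library was at least 153-fold above control and at least 136-fold above its PRP library. For the 5-dose library these bounds were at least 107-fold and 156-fold. With the rounded count of 0 taken as observed reads, counting error allows up to 0.536 TPM of this transcript in the saline library. That bound leaves out any reads that fit the transcript but were assigned to similar ones.

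The other 4 near-0 members were lower. The transcript of 1193 bases was at 0 in the control and both PRP libraries, at 20.5 TPM after 3 doses (18.8 to 22.3) and at 59.9 TPM after 5 (56.7 to 63.3). The transcript of 742 bases reached 9.30 TPM after 3 doses (7.81 to 11.1) and 22.04 TPM after 5 (19.5 to 24.9), with counts that rounded to 0 elsewhere. These 2 were at least 2-fold higher after 5 doses than after 3. The transcript of 831 bases had 10.5 TPM after 3 doses, 6.65 TPM after 5 and at most 0.169 TPM in the other libraries. The transcript of 1659 bases was just past the level minimum, at 5.22 TPM after 3 doses and 6.78 TPM after 5, with counts that rounded to 0 elsewhere. None of the 6 had whole-number estimated counts in all 5 libraries. A fractional estimate can arise when reads that fit several similar transcripts are divided among them. Its part in the levels of these 6 was not tested.

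Among the 19 graded members, the most abundant was the transcript of 1715 bases. It was at 202 TPM in the saline library (198 to 207), 718 TPM after 3 doses (710 to 727), 352 TPM with PRP added (346 to 358), 619 TPM after 5 doses (611 to 627) and 294 TPM with PRP added (290 to 299). It was 3.55-fold above control after 3 doses and 3.06-fold after 5. With PRP it was 2.04-fold and 2.10-fold lower than with cisplatin alone, which left it 0.80 and 0.54 log2 units above control, outside counting error. Its place among the members thus rests on falls that barely exceeded 2-fold. Of 5 other scalings of the libraries, 1 kept it a member.

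The transcript of 2445 bases was the second most abundant and had whole estimates in every library. Its levels were 55.5 TPM in the saline library (53.6 to 57.4), 171 TPM after 3 doses (168 to 175), 55.1 TPM with PRP added (53.1 to 57.2), 119 TPM after 5 doses (116 to 122) and 53.2 TPM with PRP added (51.6 to 54.9). The control and both PRP libraries overlapped within counting error, 0.01 and 0.06 log2 units apart, while the cisplatin libraries were 3.09-fold and 2.14-fold above control. The rise was larger after 3 doses than after 5, outside counting error. Under 4 of 5 other scalings of the libraries it no longer met every condition of the rule.

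The transcripts of 917 and 350 bases came next among the abundant graded members. The former was at 38.4 TPM in the saline library, 127 TPM after 3 doses, 50.0 TPM with PRP added, 114 TPM after 5 doses and 40.5 TPM with PRP added. Its counting intervals in the control and the 5-dose PRP library overlapped. The transcript of 350 bases was at 39.4 TPM in the saline library, 128 TPM after 3 doses, 58.1 TPM with PRP added, 83.2 TPM after 5 doses and 28.5 TPM with PRP added. It lay above control with PRP after 3 doses and below it with PRP after 5, both outside counting error.

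Whole estimates in all 5 libraries were found in 3 of the 25 members, the transcript of 2445 bases and 2 lower ones. Of these 3, transcript_40150, of 3336 bases, had the largest value for the smaller of the 2 falls with PRP, 1.57 log2 units. Its levels were 4.24 TPM in the saline library (3.81 to 4.70), 10.6 TPM after 3 doses (9.91 to 11.3), 2.92 TPM with PRP added (2.54 to 3.35), 11.6 TPM after 5 doses (10.8 to 12.4) and 2.48 TPM with PRP added (2.20 to 2.80). It was 2.50-fold and 2.73-fold above control in the cisplatin libraries, and 3.63-fold and 4.66-fold lower with PRP, to 0.42 and 0.59 log2 units below control. The next was transcript_272360, of 1287 bases, at 2.22 TPM in the saline library (1.71 to 2.83), 6.89 TPM after 3 doses (5.96 to 7.94), 2.42 TPM with PRP added (1.85 to 3.12), 5.74 TPM after 5 doses (4.82 to 6.79) and 1.33 TPM with PRP added (0.985 to 1.75). Its control level overlapped both PRP levels within counting error, on 50 to 64 counts in those 3 libraries. Of the 5 other scalings, 3 kept transcript_40150 a member and 1 kept transcript_272360.

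**Figure D2:**
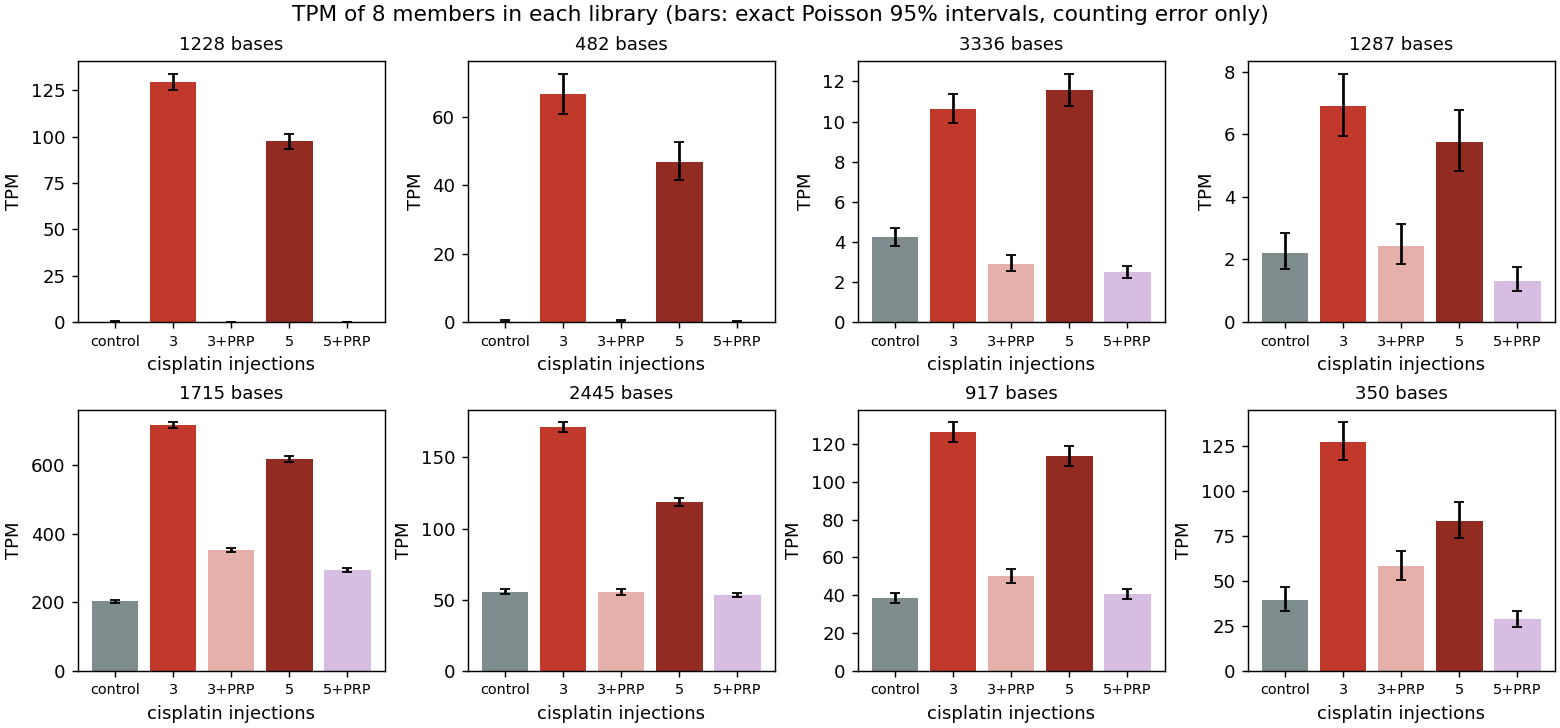
TPM (vertical axes, linear from 0, a separate scale in each panel) of 8 members, named by length, in the saline library and after 3 or 5 cisplatin injections without and with PRP. Error bars are exact Poisson 95% intervals. In each panel the 2 libraries with cisplatin alone stand highest, and the 1715-base transcript keeps a level above control with PRP (352 and 294 against 202 TPM).

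The remaining graded members were of lower level or less certain. The transcript of 735 bases was at 20.6 TPM in the saline library, 72.4 TPM after 3 doses, 17.5 TPM with PRP added, 43.7 TPM after 5 doses and 10.1 TPM with PRP added. With PRP after 5 doses it lay 0.97 log2 units below control, close to the limit of the rule. Only 1 of 5 other scalings kept it a member. The transcript of 1095 bases was at 1.34 TPM in the saline library, 9.81 TPM after 3 doses, 1.70 TPM with PRP added, 11.2 TPM after 5 doses and 0.424 TPM with PRP added. It had the largest fall of the graded members with PRP after 5 doses, 3.09 log2 units. That left it 0.72 log2 units below control, outside counting error. It was not a member when 0.1 was added to TPM in place of 1. The members of 311 and 346 bases rested on few reads, 9.05 and 10.3 estimated counts in the saline library. Their counting intervals in the control and the 5-dose library overlapped, and they were the only 2 members with such an overlap in any of the 4 differences of the rule.

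Summed over all members, the level was 425 TPM in the saline library, 1663 TPM after 3 doses, 594 TPM with PRP added, 1453 TPM after 5 doses and 483 TPM with PRP added. The transcript of 1715 bases made up 47.7%, 43.2%, 59.3%, 42.6% and 60.9% of these sums. Without it the sums were 222, 945, 242, 834 and 189 TPM. The PRP sums then lay on either side of the control sum, higher after 3 doses and lower after 5. Over the 19 graded members, the median difference from control was 1.46 log2 units after 3 doses and 1.20 after 5, beside 0.26 and 0.22 over all 15393 transcripts. With PRP the graded members' medians were -0.10 after 3 doses and -0.12 after 5, beside 0.26 and -0.24 over all transcripts. The rule placed the members at least 1 unit above control without PRP and within 1 unit of it with PRP. Their medians therefore describe size only, and nothing is read from the gap to all transcripts. With PRP after either schedule, 8 of the 19 were above control and 11 below, and 16 of all 25 members overlapped the control level within counting error. The 16 include every near-0 member after either schedule. The rule itself asked for levels within 1 unit of control. The share of other transcripts overlapping control was not counted, so nothing is read from the 16.

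The rule did not set the 2 cisplatin schedules against each other. Of the 25 members, 16 were higher after 3 doses and 9 after 5, that is 36.0% higher after 5, against a background of 45.6% of all 15393 transcripts. Among the transcripts raised after both schedules the share was 37.6%, close to that of the members. A 2-fold difference between schedules was seen in 3 members (12.0%), the transcripts of 1193, 742 and 372 bases, each higher after 5 doses, beside a background of 9.7%. The transcript of 372 bases was at 12.6 TPM after 3 doses (9.73 to 16.2) and 26.9 TPM after 5 (21.9 to 32.9), with 5.14 TPM in the saline library. The other members differed by less than 2-fold between the milder and the more severe schedule.

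PRP was also set against cisplatin at similar fragment length, which crosses the schedules and so also differs in dose. The 5-dose library was at least 2-fold above the 3-dose PRP library in 20 of 25 members, beside a background of 12.4%. The 3-dose library was at least 2-fold above the 5-dose PRP library in 25 of 25, beside a background of 27.9%. The rule already forces these differences above 0, so the counts describe their size only. Their medians over the members were 1.68 and 1.88 log2 units.

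The members were a small part of the transcripts with a raised level in both cisplatin libraries. Of the 15393 transcripts, 699 (4.54%) were at least 2-fold higher than control in both cisplatin libraries, and both comparisons used the same control library. After 3 doses 9.13% were higher and after 5 doses 7.65%, while 12.2% and 27.3% were at least 2-fold lower with PRP. Of the 699, 308 (44.1%) stayed more than 2-fold above control in both PRP libraries. Another 139 (19.9%) did so with PRP after 5 doses alone and lay within 2-fold of control after 3, and 103 (14.7%) showed the reverse. Within 2-fold of control in both PRP libraries lay 76 (10.9%), and 51 of these were not at least 2-fold below the matching cisplatin library in both schedules. The 25 members were the other 3.58%.

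The condition was also counted for each PRP library alone. Each such count includes the members, so it could not be lower than theirs, and nothing is read from its being higher. Of the 699, 146 (20.9%) lay near control and at least 2-fold below cisplatin with PRP after 3 doses, and 130 (18.6%) with PRP after 5. Only after 3 doses did 121 do so, and only after 5 doses 105. How many would meet the condition in both libraries if the schedules were independent was not tested. The members are therefore not read as returning jointly more often than the separate shares would give. The mirrored rule, for transcripts lowered by both schedules and near control with PRP, took 18 of 1122 lowered transcripts (1.6%). The 1122 needed 5 TPM or more in control, and the 18 also needed it in both PRP libraries. The step from the raised transcripts to the members added no level minimum, so the shares are not like for like.

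**Figure D3:**
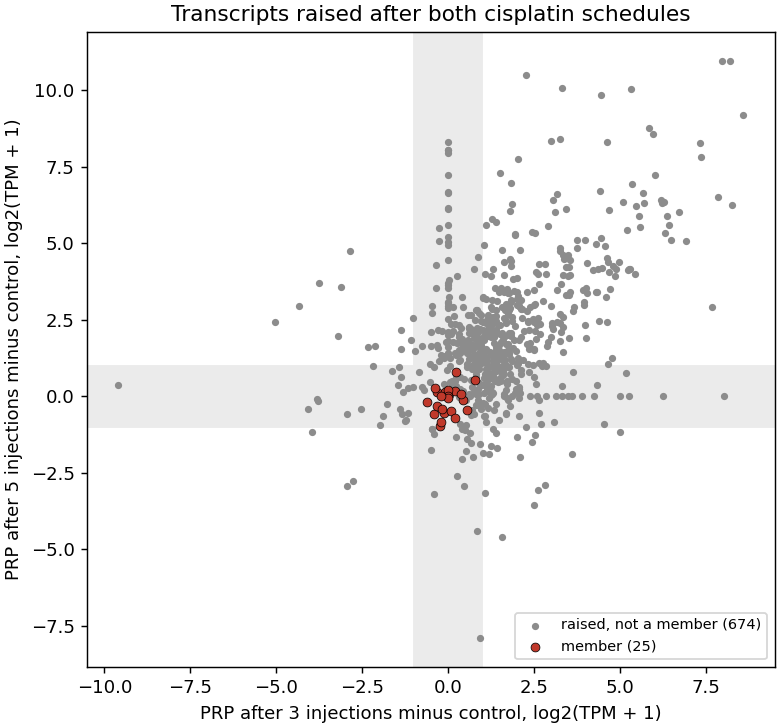
Difference from control with PRP after 3 doses (horizontal) and after 5 doses (vertical), both in log2(TPM + 1), for the 699 transcripts raised after both cisplatin schedules. Grey bands mark 1 unit to either side of control. The 25 members (red) lie where the bands cross, as do 51 others not at least 2-fold below cisplatin in both schedules. Above 1 on both axes lie 308 transcripts.

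Membership near the thresholds was narrow. The member closest to a limit, of 516 bases, was at 6.48 TPM in the saline library, 16.5 TPM after 3 doses, 5.47 TPM with PRP added, 14.1 TPM after 5 doses and 6.48 TPM with PRP added. Its rise and its fall in the 5-dose schedule were 1.01 log2 units each. Just outside was a transcript of 740 bases, at 2.95, 13.2, 5.67, 10.1 and 4.61 TPM in the same order, whose fall with PRP after 5 doses was 0.99 log2 units. Within 0.1 log2 units of a limit lay 8 members on the inside and 18 other transcripts on the outside. Under 5 other scalings of the libraries, 5 of the 25 met the rule every time, the members of 1228, 482, 1193, 1095 and 5461 bases.

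The rule set no limit on length, but its TPM values were computed from effective length, which depends on length and fragment length. With plain length in place of effective length, the 699 raised transcripts became 602, and 20 of the 25 members were kept. The length shares are therefore not independent of the rule. The members had a median length of 1193 bases, beside 573 bases for the 699 raised transcripts and 1654 bases for all 15393. Transcripts under 500 bases made up 5 of 25 members, 44.9% of the raised transcripts and 21.1% of all. Those of 4000 bases or more made up 3 members (12.0%), 6.01% of the raised and 21.1% of all. The members' lengths ran from 311 to 16144 bases and covered all 5 length classes, with 5, 6, 6, 5 and 3 members from the shortest class to the longest. Whole estimates in all libraries were found in 12.0% of members, 5.01% of the raised and 15.2% of all.

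**Figure D4:**
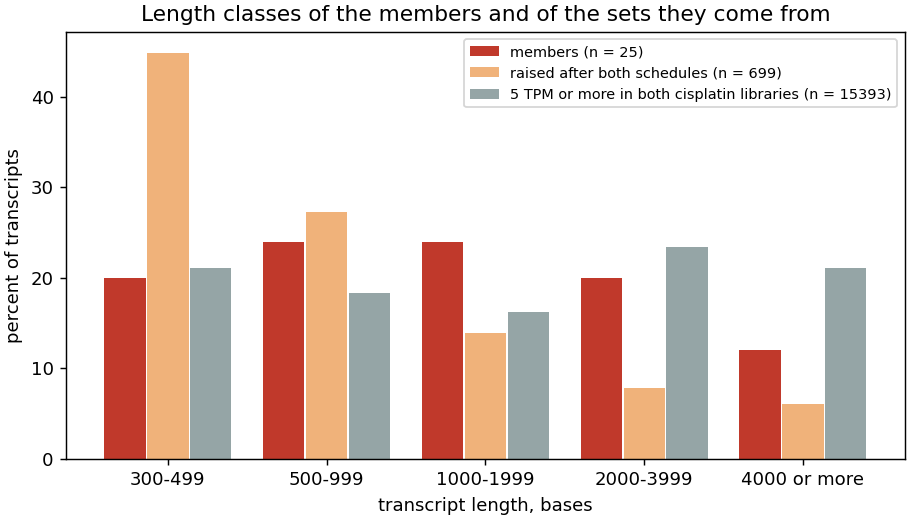
Percent of transcripts (vertical) in 5 length classes in bases (horizontal) among the 25 members, the 699 transcripts raised after both schedules and the 15393 at 5 TPM or more in both cisplatin libraries. Of the raised transcripts 44.9% are under 500 bases, while the members spread over the classes with 5 of 25 there.

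Identifier numbers carry some order, since transcripts with adjacent numbers tended to be alike in length (Pearson correlation of log2 length 0.52 over 209353 pairs, across transcripts that are not independent). What the order stands for is not stated in the labels or the files. A transcript at most 5 numbers away and within 5% of the length, at 1 TPM or more in some library, was found for 12 of 25 members (48.0%), beside 26.9% of the raised transcripts and 27.8% of all. Whether these neighbours share sequence with the members was not tested, since no sequence was at hand. The level of each member was also summed with these neighbours, which leaves out any division of reads among them. This sum was chosen after the data were seen. It met the whole rule for 5 of the 12 members and was still raised after both schedules for 10.

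The 16144-base member was the clearest case of a sum unlike the member. It was at 0.545 TPM in the saline library, 10.1 TPM after 3 doses, 0.822 TPM with PRP added, 6.58 TPM after 5 doses and 1.69 TPM with PRP added. The next number, of 16146 bases, was at 12.5, 8.79, 18.7, 12.2 and 2.78 TPM in the same order, highest in the 3-dose PRP library, where the member was low. Their sum was 13.0, 18.9, 19.5, 18.8 and 4.47 TPM, which was not 2-fold above control in any library. The 2-fold rise of this member was thus not seen in the pair. With PRP after 5 doses the member itself stayed 0.80 log2 units above control, outside counting error. It was not a member when 0.1 was added to TPM in place of 1.

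Near-length neighbours of the 5461-base member behaved in another way. The member was at 18.8 TPM in the saline library, 50.7 TPM after 3 doses, 16.4 TPM with PRP added, 79.6 TPM after 5 doses and 10.1 TPM with PRP added. A second transcript of 5461 bases, numbered 2 lower, had nearly the same values, at 18.9, 48.6, 13.5, 80.8 and 8.40 TPM. It missed the rule because it was 1.08 log2 units below control with PRP after 5 doses. Another of the same length lay between them in number, at 29.5, 45.3, 53.3, 116 and 57.1 TPM, and stayed above control in both PRP libraries. Their sum was 67.1, 145, 83.2, 277 and 75.6 TPM, at least 2-fold higher after both cisplatin schedules and within 2-fold of control with PRP, but 0.79 log2 units below cisplatin with PRP after 3 doses.

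The members of 1228 and 1193 bases had adjacent numbers, and no other member had a second member within 5 numbers. Together with 3 neighbours of 1190 to 1231 bases, their sum was 76.6 TPM in the saline library, 294 TPM after 3 doses, 13.2 TPM with PRP added, 383 TPM after 5 doses and 81.4 TPM with PRP added. The sum lay 1.93 and 2.31 log2 units above control in the cisplatin libraries. With PRP after 5 doses it was 0.09 units from control, and with PRP after 3 doses it was 2.45 units below control, past the limit of the rule. For transcript_25613 the neighbours were low, and the sum with them was 1.95, 67.4, 2.31, 50.2 and 1.16 TPM, which met the rule. The sum for the 2445-base member fell short by its rise after 5 doses, 0.75 log2 units. That member had whole estimates in every library.

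**Figure D5:**
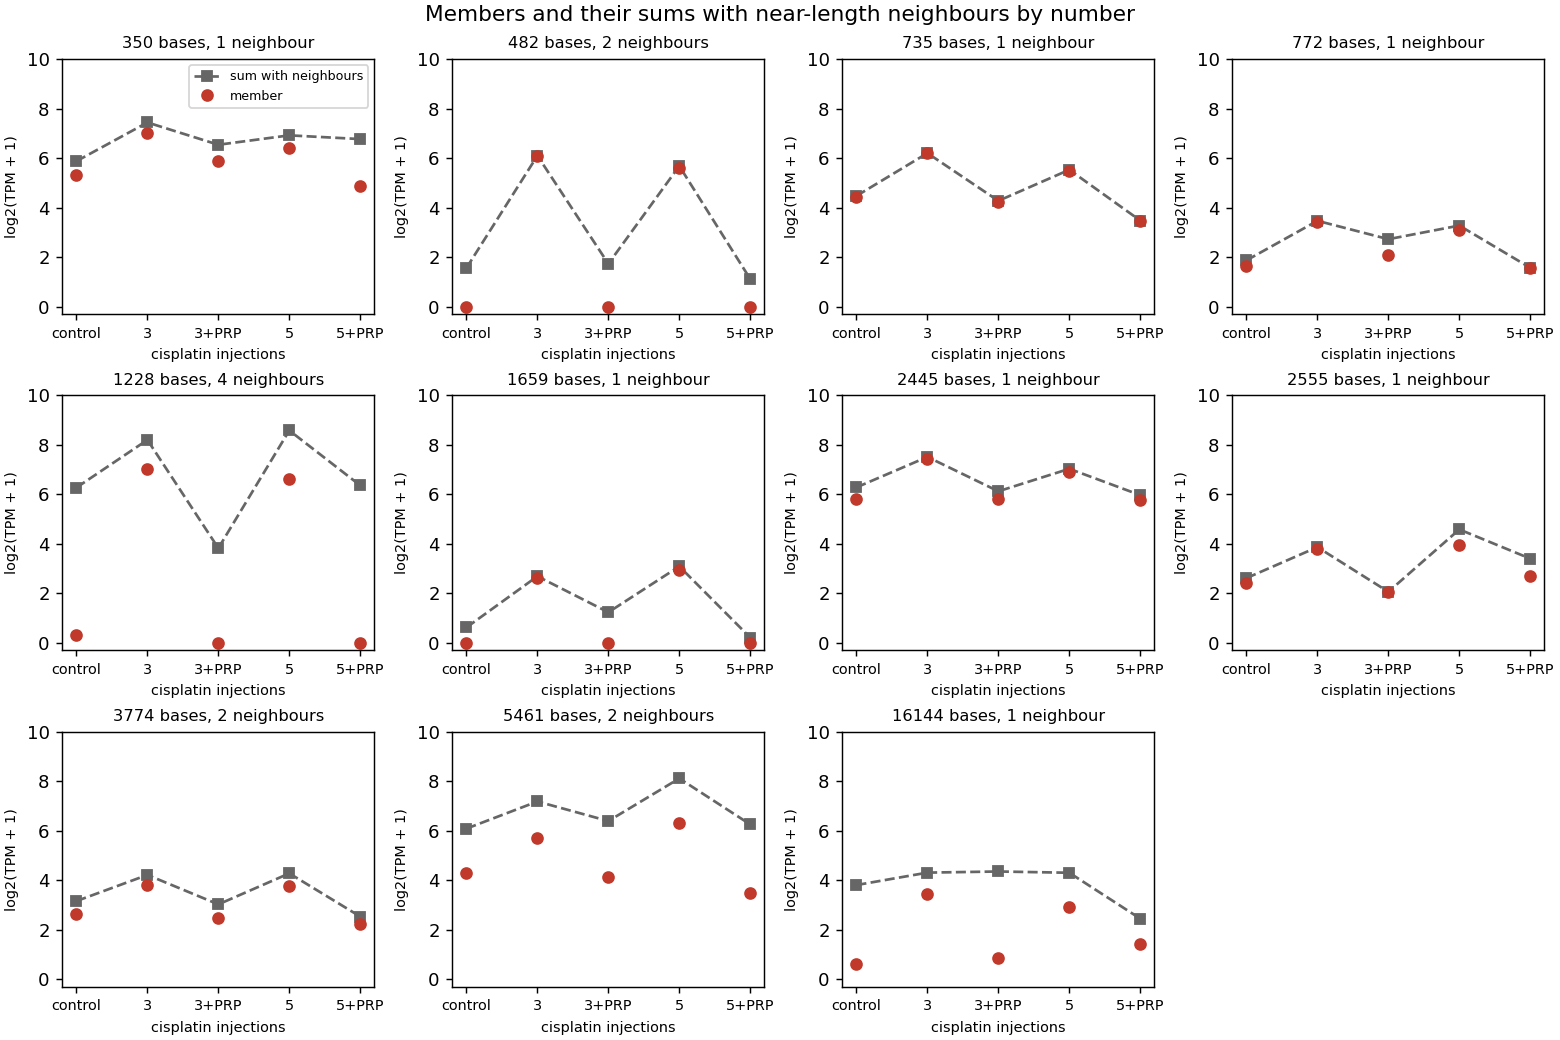
Level in log2(TPM + 1) (vertical) of 11 members with near-length neighbours (red points) and of the sum of each with its neighbours (grey squares, dashed line) in the saline library and after 3 or 5 cisplatin injections without and with PRP (horizontal). The 1193-base member shares the sum of the 1228-base panel. In the 16144-base panel the sum stays between 3.81 and 4.36 in the first 4 libraries while the member moves.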

How the data were processed

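RNA was sequenced from 5 ovaries with a stranded mRNA kit, per the labels' protocols. HISAT2, fastp, FastQC and MultiQC appear in the submitters' processing notes, without versions. Neither the program behind the estimates nor the transcript set is named there (not given in the sources used here). Per the file headers, the authors deposited transcript length, effective length, estimated count and TPM. The deposited TPM column was treated as a score, since 61 to 110 entries per library were over 100 times too large. TPM was recomputed from estimated counts and effective lengths to 1000000, with unlisted transcripts at 0, after 14 counts over 100 times too large were divided by 1000. None of these was a member's.

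Folds printed for a transcript are ratios of TPM. Log2 units, and the 2-fold and other fold limits used for counting, refer to log2(TPM + 1), a scale that makes changes at low levels look smaller than they are. A whole estimate lay within 1e-06 of a whole number. Poisson intervals were taken on estimated counts rounded to whole numbers. The members and lists were chosen with earlier results of these data known. Numbered by rule were the 2 members with the largest smaller rise, and the 2 with whole estimates and the largest smaller fall. Others described are the most abundant and those near a threshold. Python 3.11.15, pandas 2.3.3 and scipy 1.17.1 were used.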

Additional observations from a re-analysis of the deposited data

How the results depend on the processing

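Which transcripts were members depended on the scaling and on the thresholds. The count was 25 with deposited TPM and with uncorrected counts, 14 with median-of-ratios scaling, 17 with CPM, 20 with quantile normalization and 26 with TPM from the plain length. Of the 25 members, these last 4 settings kept 6, 8, 16 and 20. Median-of-ratios scaling from transcripts at 5 TPM or more, chosen after seeing the data, gave 12, all among the 25. Library factors ran from 0.547 to 1.61 over transcripts above 0 in all libraries, and from 0.877 to 1.10 over those at 5 TPM or more. The count was 7 with 3-fold differences, 9 with a minimum of 20 TPM, 146 with none, 3 among whole estimates, 20 at 500 bases or more and 18 with return within 1.5-fold. Summing members with near-length neighbours, also chosen after seeing the data, kept 18. Of these 18, 13 had no such neighbour and so could not change, and the sum kept 5 of the other 12. The count was 33 with a pseudocount of 0.1 and 28 with 5, which kept 20 and 11 of the 25, and the former lost transcript_354932. Under all 15 settings together, 0 members were kept, in part because some settings admit only whole estimates or long transcripts. The 699 raised transcripts became 402 with median-of-ratios scaling, 396 with CPM, 344 with 3-fold differences, 301 with a minimum of 20 TPM and 1466 with none. They became 436 with a pseudocount of 5, 385 at 500 bases or more and 35 among whole estimates. The smaller rise of transcript_40150 was 0.75 log2 units with median-of-ratios scaling, 0.90 with that from transcripts at 5 TPM or more and 0.76 with a pseudocount of 5, all below the 1 unit of the rule. That of transcript_272360 was 0.60 and 0.92 log2 units under the same 2 scalings, 0.57 with a pseudocount of 5, 0.88 with CPM and 0.85 with quantile normalization, also below it. Leaving out a replicate was not possible with 1 library per group. Depth limits the members of 311 and 346 bases most.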

Other observations

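Around transcript_354932, 10 of the 11 numbers within 5 of it were listed, of which 8 were not members. Of these 8, 3 were raised after both schedules, beside a background of 4.54%. With PRP, 7 of the 8 were at least 2-fold lower than with cisplatin alone after 3 doses, beside 12.2%, and 6 after 5, beside 27.3%. The backgrounds are over the 15393 transcripts at 5 TPM or more in both cisplatin libraries, a minimum not set for these 8. With PRP after 3 doses 5 of the 8 were at least 2-fold below control, and with PRP after 5 doses 1 was. The share of all transcripts this far below control with PRP was not counted, so nothing is read from these counts. The transcript of 308 bases, numbered 5 higher, was at 14.6 TPM in the saline library, 49.5 TPM after 3 doses, 0 TPM with PRP added, 133 TPM after 5 doses and 6.02 TPM with PRP added. It was raised in both cisplatin libraries and lay below control in both PRP libraries, outside the rule. These values were singled out after they were seen.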
